A study of Mus musculus with 2 samples.

Results

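A family of short CpG clusters with the same spacing of CpGs was described in 2 mouse haploid embryonic stem cell lines. The rule kept CpGs read 10 or more times in each library and looked for 5 consecutive ones whose 4 steps in bp, read in either orientation, were 7-20-2-8, 4-8-2-20, 8-2-3-17, 3-2-8-4 or 4-8-2-17. It found 930 such runs, and merging those that overlap left 757 copies with 3960 CpGs, out of 1030368 CpGs compared. The spacings had been chosen by their methylation levels in these 2 libraries (methylated over all reads per CpG, lower in A129-2), so the levels of the copies and the difference between the lines describe the family and carry no test.

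A129-2 has the strain background 129Sv and AOS-14 has C57BL/6. Both are haploid embryonic stem cells, cells that carry a single chromosome set, derived by cell sorting from AG-haploid embryos. No treatment, time or further genotype is given for either line, and each has 1 library of genomic DNA, so strain, line and library cannot be told apart. With 10 or more reads, 1065668 CpGs were covered in A129-2 and 1165015 in AOS-14, and at the compared CpGs the median depth was 79 and 97 reads.

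CpG methylation is the addition of a methyl group to the cytosine of a CG pair, and bisulfite sequencing reads it as the share of reads in which the cytosine was protected from conversion. Endogenous retroviruses, the long terminal repeat (LTR) elements of the mouse genome, are present as many near-identical copies and are normally kept methylated and silent. Intracisternal A particles (IAPs) are the best known mouse family of this kind. In embryonic stem cells they are also covered by repressive histone marks laid down through TRIM28 and SETDB1, and they lose methylation less fully than most sequence when the genome is demethylated.

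The 5 spacings were pieces of a single frame of 7 CpG places with steps of 4, 8, 2, 3, 17 and 7 bp. It occurred in 3 variants. In the long form the CpG of place 5 is absent, which leaves a step of 20 bp between places 4 and 6. In the extra form the CpG of place 5 is present, and in the short form a single step of 17 bp joins places 4 and 6, so that the stretch is 3 bp shorter. The deposited tables give 5 letters of sequence around each CpG, which the rule did not use. A copy was counted as matching where the letters at all but at most 1 of its CpGs were in an allowed set: CCGG at places 1 and 7, TCGT or GCGT at place 2, ACGC at place 3, GCGT or GCGA at place 4, TCGA or ACGA at place 5 and CCGA at place 6. The most frequent letters of the matching copies are printed below to show what the forms look like, with CpGs in capitals, n for a letter read in under 20% of the copies, and the frame's places running 5′ to 3′.
Long form: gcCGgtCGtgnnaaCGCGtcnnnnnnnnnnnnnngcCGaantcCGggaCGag
Extra form: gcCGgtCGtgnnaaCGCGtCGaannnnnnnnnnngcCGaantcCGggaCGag
Short form: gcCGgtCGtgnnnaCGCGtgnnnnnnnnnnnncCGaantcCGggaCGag

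These lines are built from copies kept for their letters, and single letters vary. The least shared printed letter was present in 56.4% of the long copies in which it was read, in 72.7% of the extra copies and in 43.0% of the short copies. Of the 757 copies, 659 matched the allowed set, and 644 of them did so at every CpG. The other 98 had letters outside it at 2 or more CpGs, 63 of them at 5. The allowed letters were set after the data had been seen. The label of a repeat-like family therefore held for 659 copies, and the remaining 98 shared the spacing but not these letters. Among the matching copies 388 were of the long form, 167 of the extra form and 104 of the short form. Long copies were split evenly between the strands, 194 on each, while 86 of the 104 short copies lay on the minus strand. The rule finds the short form only where place 1 was covered. Among long copies, place 1 was measured in 181 on the minus strand and in 36 on the plus strand. Whether the short form itself favours a strand was not tested.

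Just 1 matching copy fell inside a promoter window of the RefSeq sequence table (build GRCm38.p6), upstream of the predicted gene Gm52432, and it gives the letters between the CpGs. At place 2 it has GCGA, which is outside the allowed set, so it matched at all but 1 of its CpGs. Only 3 of the 659 matching copies had GCGA there. The plus strand of chrX:65707218-65707302 is printed, with the CpGs of the copy in capitals. As background, the end of this stretch has the letters known from the primer binding site next to the LTR of IAP elements. No repeat annotation was used here, so the other copies were not assigned to a named element. Below it stands a copy with the long spacing but other letters, upstream of Cd47, which encodes an immune inhibitory surface protein (minus strand of chr16:49855452-49855536).
Gm52432: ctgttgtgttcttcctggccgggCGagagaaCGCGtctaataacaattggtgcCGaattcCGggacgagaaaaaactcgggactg
Cd47: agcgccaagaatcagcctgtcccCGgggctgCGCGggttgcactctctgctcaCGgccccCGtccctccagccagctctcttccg
The copy near Gm52432 had a mean level of 21.3% in A129-2, from 1987 reads, and of 55.5% in AOS-14, from 460 reads. The copy near Cd47 had 1.61% and 3.43%, from 675 and 674 reads. Both copies have the same 4 steps, and they differ in letters, in level and in the balance of reads between the libraries.

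That split ran through the whole set. Copies with matching letters averaged 25.1% ± 4.71 methylation in A129-2 and 47.1% ± 7.20 in AOS-14 (mean of the CpGs of a copy, then mean and SD over 659 copies). Copies with other letters averaged 1.38% ± 1.40 and 2.05% ± 2.17 (SD over 98 copies). Over all 757 copies, as the rule draws them, the means were 22.02% ± 9.11 and 41.3% ± 16.6, a difference of A129-2 minus AOS-14 of -19.2 points. The copies are not replicates of a condition, and the SD is the spread between places in the genome within 1 library. On summed reads the matching copies stood at 24.0% in A129-2 (95% binomial interval by the exact method, 23.9% to 24.1%) and at 48.8% in AOS-14 (48.6% to 48.9%), intervals that cover counting error only.

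**Figure D1:**
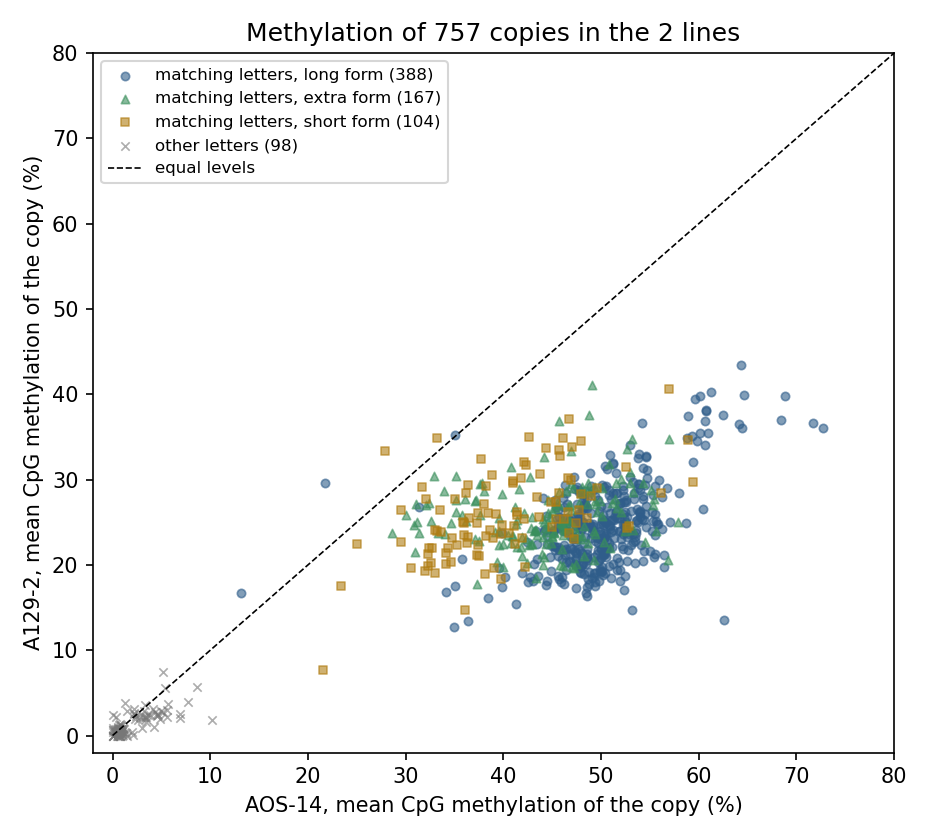
Each point is a copy, with its mean CpG methylation in AOS-14 on the horizontal axis and in A129-2 on the vertical axis, both in percent. Symbols mark the form of the 659 copies with matching letters and the 98 with other letters, and the dashed line marks equal levels. The matching copies lie below the line apart from 5, around 25.1% in A129-2 and 47.1% in AOS-14, and the others lie near 0 in both lines.

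Levels were lower in A129-2 at 654 of the 659 matching copies and higher at 5. In 603 of them every CpG was lower. The quartiles of the matching copies were 22.05% and 27.6% in A129-2, against 44.0% and 51.5% in AOS-14. The extremes overlapped (7.66% to 43.5% and 13.2% to 72.7%). The spacings were chosen by this contrast, so the gap between the quartile ranges is not read as a result. Of the 98 copies with other letters 64 were lower, 30 higher and 4 equal. Calls used Fisher's exact test on the reads of the 2 libraries with Benjamini-Hochberg adjustment over the whole table. They needed an adjusted p below 0.05 together with at least 25 points between the lines. Of the 3960 CpGs, 1436 were called lower in A129-2 and 1 higher, beside 4.08% called lower and 0.0297% called higher among all compared CpGs. All 1436 were in matching copies. Per copy, 244 were called lower and none higher, beside 1.21% lower and 0.0114% higher among 78667 copies and comparison blocks, which are 5 consecutive CpGs outside the copies within 60 bp. Called or not, 68.2% of the comparison blocks had a lower level in A129-2. The rule was proposed from this contrast, so nothing is read from these counts.

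The forms differed in AOS-14 more than in A129-2. The long form had 24.6% ± 4.96 in A129-2, which is 0.492 of its 50.1% ± 5.68 in AOS-14. The extra form had 25.6% ± 3.67 and 44.4% ± 6.22, a ratio of 0.576. The short form had 25.9% ± 5.09 and 40.1% ± 7.25, a ratio of 0.646. The means of the forms thus lay within 1 SD of each other in A129-2, and in AOS-14 the long form was highest and the short form lowest. Of the 244 called copies 216 were long, 24 extra and 4 short. These are 55.7%, 14.4% and 3.85% of the copies of each form, beside 1.21% of all copies and comparison blocks. Calls depend on depth and on the minimum of 25 points, so nothing is read from these shares. Across copies, the levels in the lines were weakly related within the matching set (Pearson's r 0.328, Spearman's rho 0.241, 659 copies that share 2 libraries), with r 0.542 for long, 0.180 for extra and 0.547 for short copies. As a reference, 372 comparison blocks whose AOS-14 level lay between the quartiles of the matching copies had 47.7% ± 2.22 there and 25.7% ± 7.73 in A129-2, a ratio of 0.540. On these means, all 659 matching copies (25.1% in A129-2) and the blocks stood at similar levels in A129-2. On summed reads they were less alike. The blocks then had 19.4% in A129-2 and 47.6% in AOS-14, and the copies 24.0% and 48.8%.

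Within a copy the CpG places had different levels. Over all matching copies places 1 and 6 were the highest and place 2 the lowest in both lines, while in the extra form in AOS-14 place 4 (49.2%) stood above place 6 (47.1%). Place 1 was high, at 37.3% ± 8.73 in A129-2 and 59.6% ± 10.7 in AOS-14 (413 copies). Place 2, only 4 bp away, was the lowest, at 16.2% ± 4.88 and 36.5% ± 10.3 (659 copies). The CpG pair at places 3 and 4 had 20.5% ± 4.79 and 22.3% ± 6.13 in A129-2 and 45.8% ± 8.72 and 47.8% ± 8.90 in AOS-14. Place 5, found in the extra form alone, had 26.2% ± 3.96 and 45.6% ± 6.56 (167 copies). Place 6 had 34.1% ± 10.6 and 52.6% ± 9.92 (654 copies), and place 7 had 23.8% ± 6.29 and 42.9% ± 10.7 (255 copies of the long form). The gap between the highest and the lowest CpG of a copy had a median of 23.3 points in A129-2 and of 25.3 points in AOS-14, as large as the difference between the lines.

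The ratio of the lines also followed the place. It was 0.445 at place 2, 0.448 at place 3 and 0.468 at place 4, against 0.626 at place 1 and 0.648 at place 6. Places 1 and 6, which had the highest levels, thus also had the highest ratios. At places 3 and 4, 61.6% and 61.2% of the CpGs were called lower, against 36.8% at place 1, 34.7% at place 2 and 25.7% at place 5. Place 6 had 24.3% and place 7 had 17.3%, beside 4.08% among all compared CpGs. Median depth in A129-2 ran from 105 reads at place 1 to 248 at places 4 and 6. Calls depend on depth and on the minimum of 25 points, so nothing is read from these shares. In the long form the AOS-14 level was nearly flat over places 3 and 4 (49.1% and 49.5%), and A129-2 stood at 20.1% and 20.2% there. The short form came closest between the lines at place 6, where AOS-14 had 48.6% ± 9.04 and A129-2 had 37.96% ± 10.3. The spread between copies was wider than counting error. At place 6 of the long form the SD over copies in A129-2 was 11.2 points, where binomial sampling at the depths of these CpGs gives 2.67, and at place 3 it was 4.55 beside 2.25.

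**Figure D2:**
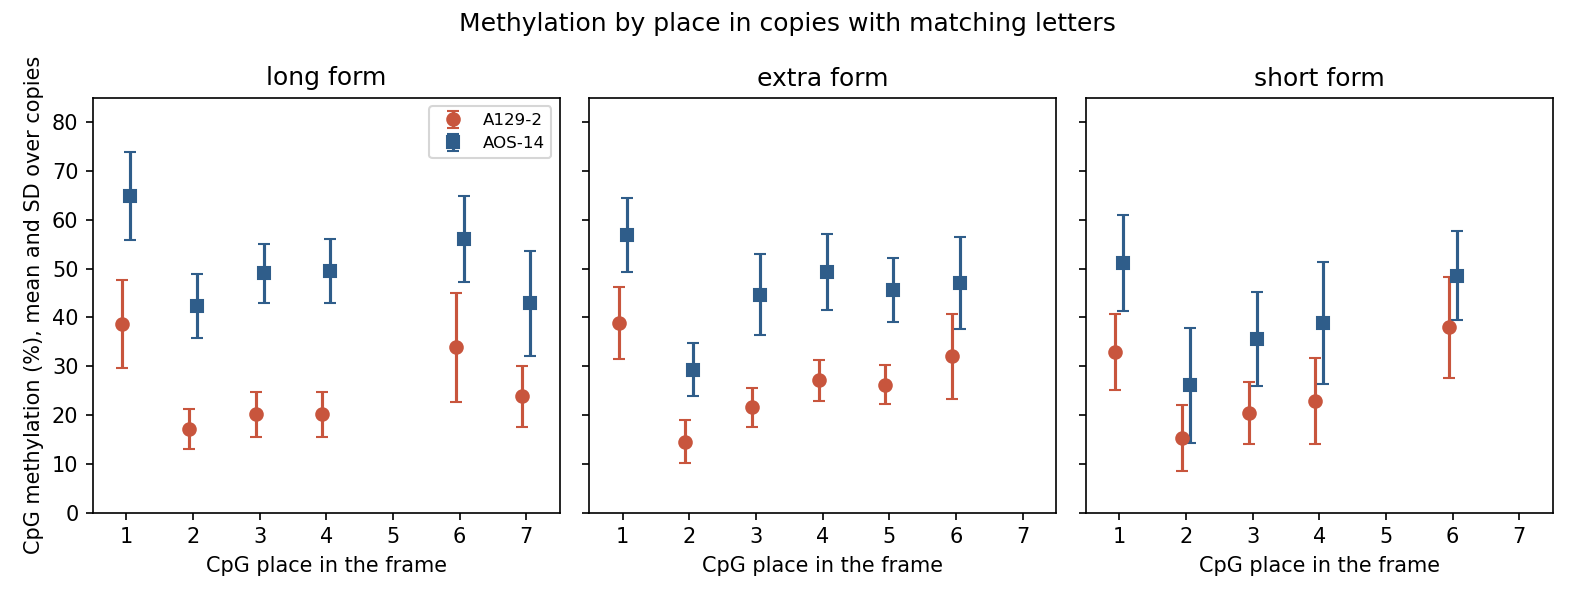
Mean methylation in percent at each CpG place of the frame, with bars of 1 SD over copies, for the long, extra and short forms with matching letters in A129-2 and AOS-14. Place 2 is lowest and places 1 and 6 are highest in A129-2 in each form, and the lines are closest at place 6 of the short form (37.96% and 48.6%).

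Places 1 and 7 lay in CCGG in all matching copies where they were measured, letters that the allowed set itself asks for. CCGG is the site of MspI, the enzyme that cuts DNA in reduced representation bisulfite sequencing. Reads near these sites came mostly from 1 strand. In long copies on the plus strand, place 2 had a median of 206 plus-strand and 5 minus-strand reads in A129-2, and place 7 had 0 and 162.5 (190 copies). In long copies on the minus strand, place 1 had 0 plus-strand and 188 minus-strand reads (181 copies), and place 7 had 12 and 12 (65 copies). In genome coordinates the CCGG on the side of the higher coordinate was thus covered mainly by minus-strand reads, and the one on the lower side was seldom covered. Places 3, 4 and 6 had reads of both strands in either orientation, with medians from 154.5 to 205 in A129-2. Levels from the strands were alike there. Summed over the matching copies, plus and minus reads at place 3 gave 20.5% and 20.5% in A129-2 and 48.8% and 48.0% in AOS-14.

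**Figure D3:**
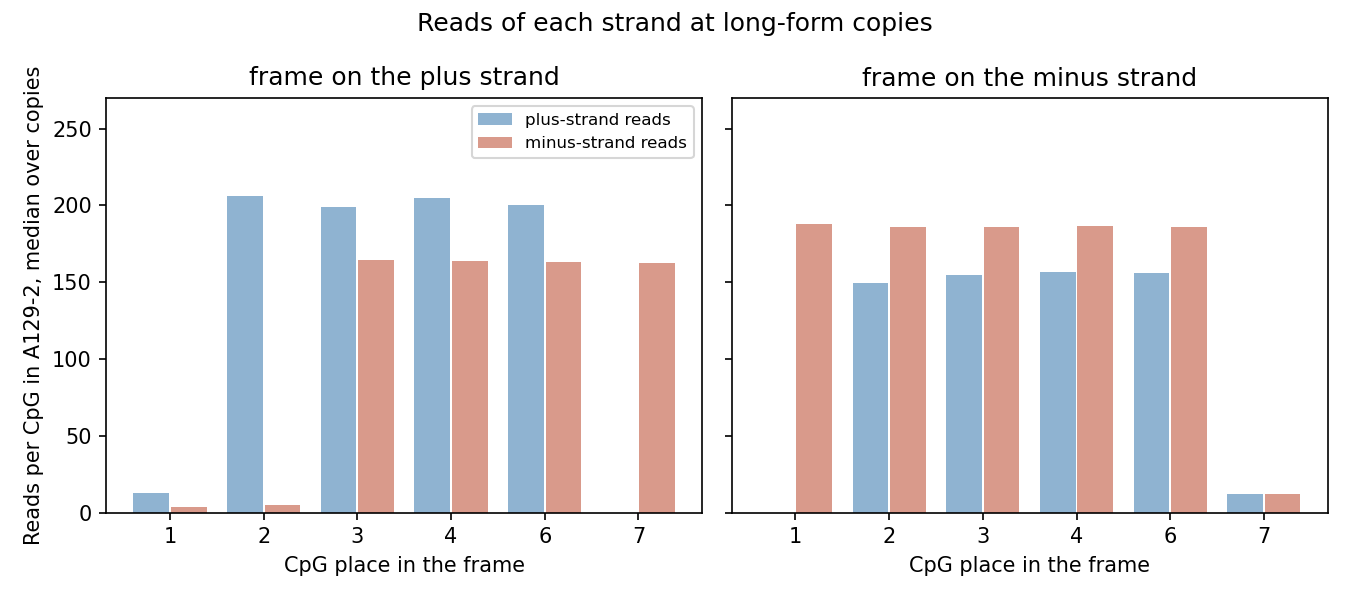
Median reads per CpG in A129-2 from the plus and minus strands at each measured place of long copies, with the frame on the plus strand at left and on the minus strand at right. Places 3, 4 and 6 have both strands in either panel, while place 7 at left (0 and 162.5) and place 1 at right (0 and 188) have mainly minus-strand reads.

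Copies of a form differed by single letters next to a CpG, and the levels differed with them. At place 2 the letters were TCGT in 459 copies and GCGT in 196. Long copies with GCGT there averaged 21.6% ± 3.41 in A129-2 and 48.3% ± 4.84 in AOS-14 (166 copies). Long copies with TCGT averaged 26.9% ± 4.69 and 51.4% ± 5.90 (219 copies). These are means over the copy. At the CpG of place 2 itself, over all forms together, GCGT had 17.6% ± 4.48 in A129-2 and 43.1% ± 7.73 in AOS-14. TCGT had 15.6% ± 4.92 and 33.5% ± 9.82 there. These pooled groups differ in form, since 166 of the 196 GCGT copies and 219 of the 459 TCGT copies were long. In AOS-14 place 2 averaged 42.4% in long, 29.3% in extra and 26.1% in short copies. At place 2 the letters were not compared within a form. In the extra form the letters of place 4 separated the copies more. With GCGA at place 4 they had 27.9% ± 4.39 in A129-2, 0.748 of the 37.4% ± 6.33 in AOS-14 (38 copies). With GCGT they had 24.9% ± 3.12 and 46.5% ± 4.40, a ratio of 0.536 (129 copies). The difference of A129-2 minus AOS-14 was thus -9.41 points in the first group and -21.6 in the second. In the short form the order in AOS-14 was the other way round, with 43.8% ± 7.24 for GCGA (24 copies) and 38.8% ± 6.88 for GCGT (79 copies). These groups were formed after the letters and levels had been seen.

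The matching copies had more reads in A129-2 than in AOS-14. The ratio of reads, A129-2 over AOS-14, had a median of 1.63 over the 659 copies (quartiles 1.44 and 1.84), and 616 of them had more reads in A129-2. Comparison blocks had a median of 0.908, and 41.5% of them had more reads in A129-2. The copies with other letters stood at 0.939, close to the blocks. The matching copies were also deeper, with a median of 219.8 reads per CpG in A129-2 and 134.2 in AOS-14, against 93.8 and 99.8 in the blocks. Depth was lowest in the short form (135.8 and 73.1), higher in the extra form (189.8 and 112.5) and highest in the long form (302.6 and 177.1). Of the 659 matching copies, 37 lay above the central 95% of the read ratios of the blocks (0.380 to 2.18) and 2 below it. Within the long form, levels varied little with the read ratio. The 97 copies with the lowest ratios had 26.4% ± 4.87 and 51.0% ± 6.80, and the 97 with the highest had 23.5% ± 4.72 and 49.4% ± 5.49. How reads that match several copies were placed is not given in the sources used here, and near-identical copies can exchange reads, so the value of a copy may hold reads of others. That part in the results was not tested.

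Depth followed the order of the chromosomes in the deposited tables, which begin with 10, 11 and 12. The 129 long copies on these chromosomes had a median of 774.5 reads per CpG in A129-2 and 534.7 in AOS-14. The 259 long copies on all other chromosomes had 278.4 and 164.2. Of 85 copies above 500 reads per CpG in A129-2, 82 lay on chromosomes 10, 11 and 12, 84 were long and 84 had TCGT at place 2. The extra form did not share this step, with medians in A129-2 of 200.5 on chromosomes 10, 11 and 12 and 189.3 elsewhere, nor did the short form, with 134.4 and 135.8. All compared CpGs on chromosomes 10, 11 and 12 had medians of 83, 79 and 79 reads in A129-2, against 75 to 101 elsewhere. The 85 deep copies averaged 24.9% ± 2.34 in A129-2 and 51.1% ± 2.69 in AOS-14. The other 304 long copies had similar means with a wider spread, 24.6% ± 5.50 and 49.8% ± 6.23. These groups differ in letters, since only 135 of the 304 had TCGT at place 2. Long copies of any depth averaged 26.9% and 51.4% with TCGT, and 21.6% and 48.3% with GCGT. Depth was not compared within a letter group. Without chromosomes 10, 11 and 12 the copies called lower numbered 158 of 579, in place of 244 of 757. Among all copies and comparison blocks, on all chromosomes, 1.21% were called lower.

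**Figure D4:**
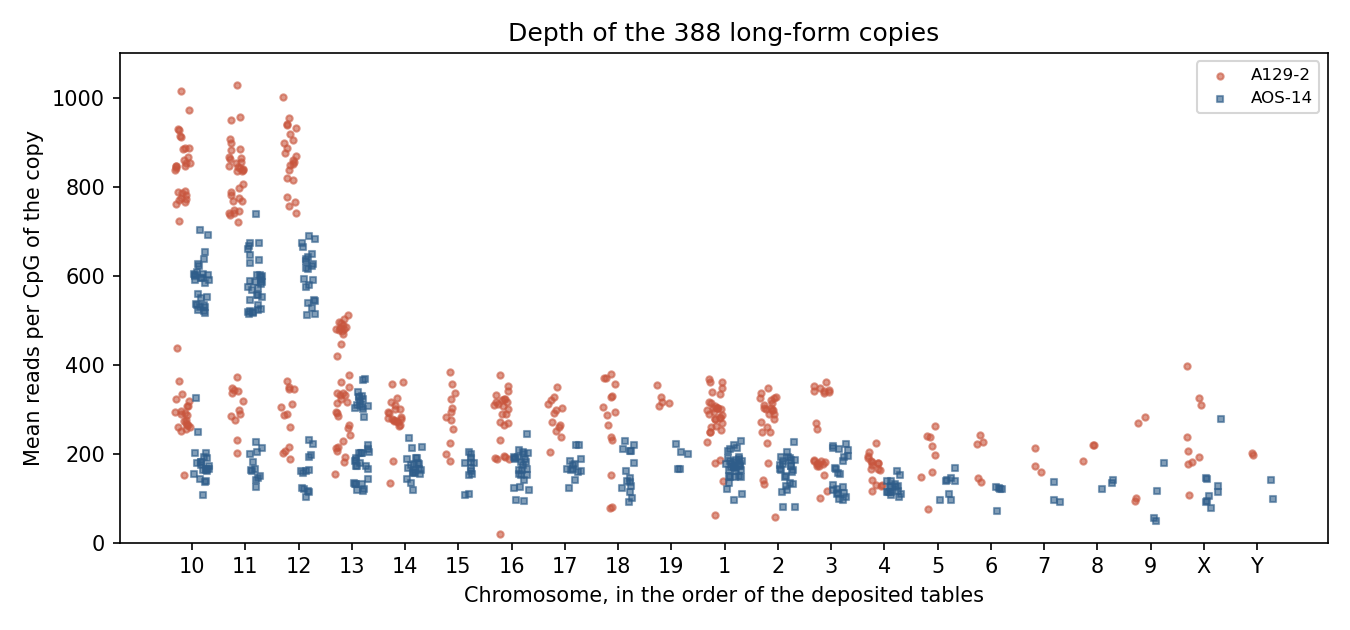
Mean reads per CpG of each of the 388 long copies in A129-2 and AOS-14, by chromosome in the order of the deposited tables. A group of 82 copies above 500 reads in A129-2 sits on chromosomes 10, 11 and 12, and 2 lie above it on chromosome 13.

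CpGs near the copies, which the rule did not use, were lower in A129-2 as well. The one 34 bp after place 3 was listed at 361 of the 659 matching copies. Its pooled reads gave 28.7% in AOS-14 (exact 95% interval 28.0% to 29.3%) and 13.6% in A129-2 (13.1% to 14.02%). Of the 94 copies with at least 10 reads there in both libraries 84 were lower in A129-2, with 14.3% ± 6.38 against 27.8% ± 9.16. On the other side, the CpG 47 bp before place 3 had 35.4% and 51.4% on pooled reads (129 copies). Within 100 bp after place 7, 689 CpGs with 10 reads had 15.04% ± 9.04 and 26.9% ± 13.0, and 610 were lower. Within 100 bp before place 1, 68 such CpGs had 26.3% ± 13.1 and 42.4% ± 16.9, and 61 were lower. Lower levels in A129-2 were common in the whole table, at 642436 of the 1030368 compared CpGs. Within these 100 bp the mean levels in both lines were lower after the frame than before it. Between 101 and 300 bp the order was the same, with 25.4% and 32.0% at 36 CpGs before the frame and 16.8% and 29.3% at 10 after it. Only 19 of those 36 were lower in A129-2, and 8 of those 10. Pooled reads before the frame were nearly equal there, at 25.1% in A129-2 and 25.6% in AOS-14. Beyond 300 bp this order did not hold. Between 301 and 500 bp, 13 CpGs before the frame had 14.1% and 23.1% and 7 after it had 29.4% and 55.7%. Between 501 and 1000 bp, 24 CpGs before the frame had 18.03% ± 14.2 and 50.2% ± 15.1, and 645 after it had 20.1% ± 13.5 and 30.2% ± 15.2.

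The matching copies had few compared CpGs around them and lay mostly outside genes. Of the 659, 398 had no other compared CpG within 300 bp and 2 had 10 or more. That count depends on coverage, since the tables listed 2106 CpGs within 100 bp after place 7, at 482 of the copies, with medians of 3 and 4 reads. Of the 98 with other letters, 95 had 10 or more. By the RefSeq gene table, which gives gene bounds and no exons, 27.6% of the matching copies (182) lay inside a gene, against 86.7% of the copies with other letters (85) and 82.9% of the blocks. The 477 outside were a median of 24085 bp from the nearest gene, with 134 within 10 kb and 69 beyond 100 kb. Levels inside and outside genes were the same within the spread, at 24.9% ± 4.49 and 25.1% ± 4.80 in A129-2 and 46.2% ± 7.82 and 47.4% ± 6.93 in AOS-14. Neighbouring matching copies were a median of 2323840 bp apart, 7 of 638 gaps were within 10 kb, and the smallest was 3631 bp.

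The 19 autosomes and both sex chromosomes held matching copies. On autosomes they ranged from 1.89 per 10000 compared CpGs on chromosome 19 to 13.6 on chromosome 16. The autosome means ran from 21.5% to 28.6% in A129-2 and from 43.1% to 50.1% in AOS-14. The X chromosome had 25 copies at 26.9% ± 4.92 and 46.9% ± 6.54, and the Y chromosome had 5 at 25.3% ± 6.60 and 43.9% ± 7.85. Both stood within the range of the autosomes. Median depth on the Y chromosome was 174.6 reads per CpG in A129-2 and 98.7 in AOS-14. On the X chromosome it was 184.2 and 104.6. A single chromosome set does not hold both an X and a Y. Whether the reads placed on the Y chromosome came from it was not tested.

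Single copies showed how far members departed from the family. The widest difference was at chr1:11891317-11891352, inside A830018L16Rik, with a mean level of 13.5% in A129-2, from 695 reads, and of 62.6% in AOS-14, from 545 reads. Its CpGs ran from 3.18% to 27.9% in A129-2 and from 48.4% to 71.5% in AOS-14. The next were at chr12:66413767-66413802, 0.843 kb from Gm51994 (14.8% and 53.1%), and at chr2:84565336-84565374, 21.7 kb from Ctnnd1, which encodes p120 catenin of cell junctions (19.7% and 56.5%). The fourth was chr16:97777379-97777414, 13.6 kb from the kinase gene Ripk4, with 36.0% and 72.7%, which was also the highest level in AOS-14. It was followed there by copies at chr7:60769737-60769772 (36.6% and 71.7%) and chr4:62868514-62868549 (39.8% and 68.9%). The highest levels in A129-2 were 43.5% at chr5:91233626-91233661 (64.4% in AOS-14), 41.1% at a copy on chromosome 18 near Gm31621 (49.05%) and 40.6% at chr2:111548638-111548670, 10.4 kb from the olfactory receptor gene Olfr1294 (57.0%). No copy was near full methylation in either line.

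The 5 matching copies that were not lower in A129-2 were of the long form at 3 places and of the short form at 2. At chr1:172265997-172266035, inside LOC115487369, A129-2 had 29.6% and AOS-14 21.7%. At chr2:3970507-3970539, 47.1 kb from Frmd4a, they had 33.4% and 27.9%. At chr2:136274901-136274943, inside the kinase gene Pak7, they had 16.7% and 13.2%, with the outermost CpG in CCGG at 37.5% and 41.2% and the next at 6.54% and 3.51%. At chr13:15100720-15100752 they had 34.9% and 33.2%, and at chr14:103642337-103642372, 7.86 kb from Slain1, 35.2% and 35.1%. None was called in either direction. The widest positive difference with other letters was in Ccnjl, at chr11:43528810-43528828, with 3.83% and 1.23%.

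The copies with the most reads in total, summed over their CpGs and both libraries, were 2 on chromosome 11. The one at chr11:9714700-9714742 had 5447 and 3992 reads over 6 CpGs in A129-2 and AOS-14, and its mean levels were 24.7% and 52.3%. The one at chr11:90312082-90312124, 24.4 kb from the transcription factor gene Hlf, had 5194 and 3964 reads, with 27.1% and 46.5%. Read balance was most uneven at chr5:40822069-40822101, a short copy with 1861 reads in A129-2 and 271 in AOS-14 (23.2% and 41.9%), followed by the copy near Gm52432. It was most uneven the other way at chr16:80766623-80766658, with 94 and 621 reads (24.8% and 45.5%), and at a copy with other letters in Zfp316, with 105 and 541 reads (2.35% and 4.64%). Levels of these matching copies stayed near those of the family whichever library held more reads.

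Genes with a usual symbol held 218 copies, of which 135 had matching letters and 83 other letters, in 214 genes. Among the 30 copies with the widest differences all had matching letters, and all were called lower in A129-2, which the ordering itself favours. Kcnk12, a potassium channel subunit, held a long copy with 18.1% in A129-2 and 51.9% in AOS-14. Cdh13, a cadherin anchored in the membrane, held an extra copy with 24.0% and 55.6%. Long copies lay in the zinc finger gene Zfp277 (19.4% and 51.7%), in the protease gene Tll2 (18.8% and 50.2%), in the synaptic scaffold gene Magi2 (17.4% and 48.6%) and in the kinase gene Camk1d (18.4% and 49.1%). Tmcc3 held 2 of the 30, a long copy with 24.0% and 55.2% and a short copy with 29.7% and 59.4%. Over the 30 copies the levels ran from 17.4% (Magi2) to 29.7% in A129-2 and from 47.2% (Nrros) to 59.4% in AOS-14.

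Further long copies lay in genes of unrelated functions. F13a1, the A chain of coagulation factor XIII, had 19.1% and 49.3%, and Pigk, an enzyme that attaches membrane anchors to proteins, had 22.2% and 52.1%. Slc25a21, a mitochondrial carrier, had 23.8% and 53.0%, and Prkar2b, a regulatory subunit of protein kinase A, had 25.3% and 53.7%. Kcns3, a potassium channel subunit, had 23.9% and 52.4%, and Spidr, a DNA repair scaffold, had 21.3% and 49.6%. Sesn1, a stress-induced regulator of metabolism, had 20.1% and 48.4%, and H2-T24, a class I histocompatibility gene, had 19.6% and 47.8%. Others of the 30 copies, in Gfod1, Kif24, Dcaf5, Catspere2, Slc38a6, Chst9, Negr1, Gng7, Psmg4, Psd3, Nrros and Aopep, were called lower too. Whether these copies lie in exons or introns was not examined, and gene expression was not analysed here.

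Copies with other letters were the ones at gene starts. Of 19 copies inside RefSeq promoter windows 18 had other letters, with levels from 0% to 2.86% in A129-2 and from 0% to 5.59% in AOS-14. Cd47 is an example printed above. Trmo, a tRNA methyltransferase gene, had 2.81% and 5.15% at a copy of the short spacing, and Actr10, a subunit of dynactin, had 1.98% and 4.90% at a copy of the extra spacing.

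Levels were similar on either side of the minimum of 10 reads. The 53 copies whose shallowest CpG had 10 to 12 reads averaged 23.4% ± 8.68 in A129-2 and 42.9% ± 15.8 in AOS-14. The 38 runs with the same spacings that missed the rule, with 7 to 9 reads at the shallowest CpG, averaged 23.6% ± 7.52 and 45.8% ± 13.8.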

How the data were processed

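Bisulfite-treated genomic DNA of A129-2 and AOS-14 was sequenced, 1 library a line. DNA was, per the labels' protocols, enriched with a methylation capture panel and read as pairs of 50 bp, while the title names reduced representation bisulfite sequencing, and the sources do not settle which it was. The submitters' processing notes name BSMAP and the build mm10. Not given in the sources used here are the version, trimming, duplicate removal and how reads matching many places were handled. The mm10 genome comes from C57BL/6, the background of AOS-14, and whether each copy is present in 129Sv was not tested.

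Per the file headers, each row is a CpG with the deposited counts of reads and methylated reads per strand and in total, the methylation level as a fraction, and 5 letters of sequence. The fraction deposited by the authors equalled methylated over all reads within 0.0005. Levels were recomputed from the counts, in percent. Deposited starts were raised by 1.

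The members, spacings, tests and lists were chosen with earlier results of these data known. The allowed letters and 3 alternatives (matching letters, places 3, 4 and 6, and leaving out chromosomes 10, 11 and 12) were added after the data had been seen. The CpG test ran over 1030368 CpGs and the copy test over 757 copies and 77910 blocks of 5 consecutive CpGs, on summed reads, both two-sided. They compare the reads of 2 libraries, and exact intervals cover counting error only. The scripts were tested on simulated data. Copies are named by rule: those with 5 or more compared CpGs that have the 4 most negative and 4 most positive differences, the 3 highest levels in each line, the 2 with the most reads in total, and the 2 highest and 2 lowest read ratios. Genes are named where they hold one of the 30 widest differences, leaving out predicted models, and 2 of these are not reported here. The other 2 matching copies that were not lower, and 3 promoter copies (Cd47, Trmo, Actr10), were chosen after their values were seen. Genes and promoter sequences came from RefSeq (GRCm38.p6, the assembly of mm10). Tools were numba 0.67.0, scipy 1.17.1, Python 3.11.15, matplotlib 3.10.9, numpy 2.4.6 and pandas 2.3.3.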

Additional observations from a re-analysis of the deposited data

How the results depend on the processing

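The mean difference over all copies (-19.2 points) stayed below 0 in all 13 alternatives that gave it. For A129-2, AOS-14 and the difference, a minimum of 30 reads gave 22.4%, 42.7% and -20.3 points, summed reads 22.8%, 45.3% and -22.4, and the central read ratios 22.2%, 41.8% and -19.6. Leaving out CCGG gave 20.4%, 39.9% and -19.5, plus-strand reads 21.2%, 40.9% and -19.7, matching letters 25.1%, 47.1% and -22.0, and places 3, 4 and 6 alone 22.4%, 42.6% and -20.1. Minus-strand reads gave 22.8% and 41.9%, counting each CpG alike 22.2% and 41.5%, and autosomes 21.9% and 41.1%. A minimum of 5 reads gave 22.1% in A129-2, and runs from every listed CpG gave 41.0% in AOS-14 and -19.1 points. Without chromosomes 10, 11 and 12, AOS-14 stood at 40.4% and the difference at -18.4 points. The copies called lower were then 158 of 579, in place of 244 of 757. At least 10 points in place of 25 called 2539 CpGs and 604 copies lower, and at least 40 points called 44 and 1. No paired analysis was possible because each line has 1 library. The cause of these shifts was not tested. With 1 library for each line, no value here has a replicate check. Means of the matching copies also differed with depth. The 165 copies with the fewest reads per CpG in A129-2 had 26.9% in A129-2 and 42.5% in AOS-14. The 165 with the most had 23.5% and 50.4%. Of these groups 32 and 162 copies were long, so depth and form are mixed, and neither was tested.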
